A study of Mus musculus with 12 samples.

Results

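Tumours of the mT3-2D line grown in immunocompetent hosts were compared with the same line in culture, to describe which transcripts a tumour in such a host holds more or less of than the cultured cells. The mT3-2D line is a murine pancreatic cancer line from the KPC model. All 5 samples labelled WT (subcutaneous mT3-2D tumours of immunocompetent hosts) and both samples labelled mT3-2D cell line were used, 7 of the 12 samples of the series. The other 5 are subcutaneous mT3-2D tumours of immunodeficient SCID hosts, which lack mature T and B cells, and their values are given only beside genes named here. All samples derive from this one line. No treatment is given for any group, and the sources used here give no strain, age, sex or culture conditions. Every tumour was measured whole, so its RNA mixes tumour cells and host cells, and a transcript of one cannot be told apart from that of the other. Total RNA was measured with a NanoString nCounter panel of mouse immune genes, in which barcoded probes are counted without amplification, and 750 genes were used.

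A transplanted tumour draws in cells of its host. Macrophages and other myeloid cells take up debris, carry Fc receptors and make complement C1q. Fibroblasts lay down collagen, and endothelial cells build vessels. Interferon-gamma, made by T cells and NK cells, raises antigen presentation on MHC class I and class II and the chemokines Cxcl9 and Cxcl10. Carcinoma cells in culture have none of these neighbours and carry only their own epithelial, secretory and growth programme.

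Recovered probe counts ranged from 368925 to 558445 per sample over the series. WT tumours 2 and 3 were nearly alike (chi-square over degrees of freedom 1.20, and 17.1 to 76.2 in other WT pairs), so their mean counts as 1 sample and n = 4 WT tumours. The line samples gave 1.64 and may be technical repeats, and 3 of the WT tumours share a title number, so p-values measure only the spread between these samples. Values are on the log2 scale of the deposited signal and are given in the order line 1, line 2, then WT tumour 1, the mean of tumours 2 and 3, tumour 4 and tumour 5. A gene is called at background where its recovered count is at or below 37.9, a level set on 34 lymphocyte genes of the line. For a gene at background in both line samples, the fold is a lower bound over the line's background on the deposited scale. The line samples had 299 and 308 genes above background, and the WT tumours had 487 to 555.

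Of the 750 genes, 488 were higher in WT tumours than in the line at a limma adjusted p under 0.05 (65.1%), 17 were lower (2.27%) and 245 were not called, so that 67.3% differed in either direction. Of the genes tested 53.1% were higher and above background in at least 1 WT tumour, and for 73.5% every WT tumour was above both line samples. Among the higher genes, 299 were above background in every WT tumour (39.9% of the genes tested), and 157 of these were at background in both line samples, while 127 were above it in both. Another 90 of the higher genes were at background in every WT tumour and line sample. The 175 genes at background throughout had a median difference of 0.90, and the scale itself gives 1 count 0.64 more on the log2 scale in WT tumours than in the line. The median difference over all genes was 1.21, and many rises depend on the scale. Scaling each sample to its median over all genes gave 101 higher and 480 lower, scaling on widely expressed genes 375 and 32, scaling on genes above background in the line 314 and 56, and TMM factors 231 and 154. A further setting, chosen after seeing the data, raised all values to the highest background of any sample and gave 211 higher genes. Under the deposited scale and all 4 other scalings, 101 genes were higher (13.5%) and all 17 lower genes stayed lower. Each of the 4 moved the WT tumours down against the line, to a median difference of -1.40 to 0.88. These scalings could therefore hardly remove a fall. Of the 294 genes above background in both line samples, 127 were higher, 17 lower and 150 not called, with a median difference of 0.53.

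**Figure D1:**
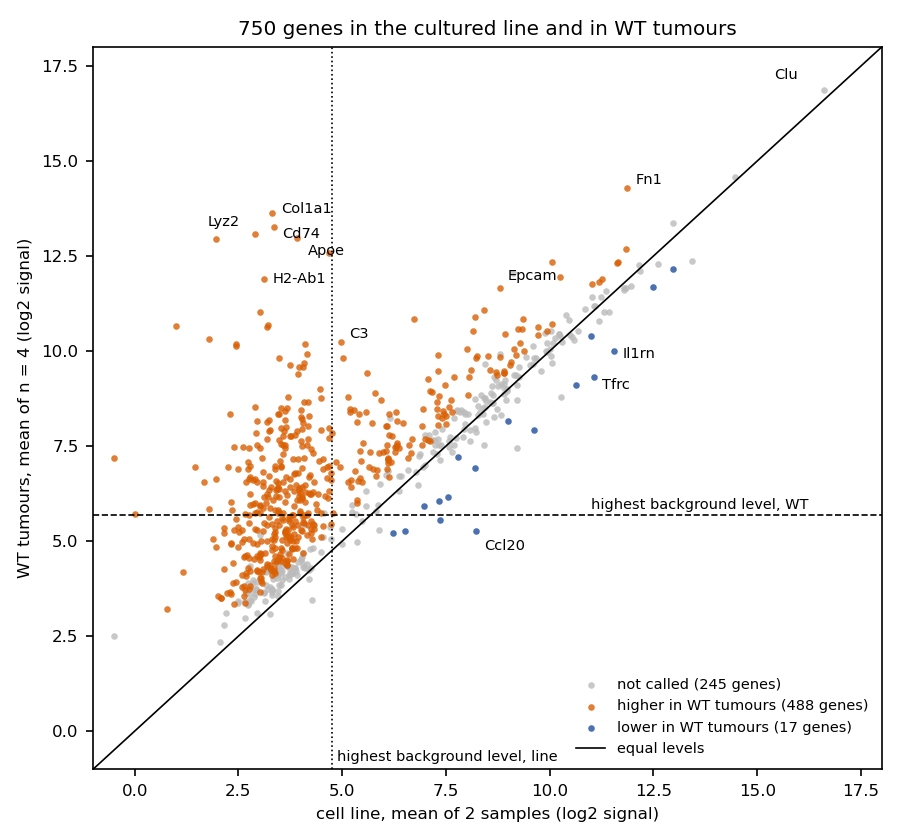
Mean log2 signal of each of the 750 genes in the cell line (x axis, 2 samples) against the WT tumours (y axis, n = 4), with 488 higher genes in orange, 17 lower genes in blue and 245 genes not called in grey. Dotted and dashed lines mark the highest background level of the line and of the WT tumours; the 157 genes at background in the line and above it in every WT tumour lie to the upper left, and genes abundant in the line lie near the line of equal levels.

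Genes shared by leukocytes were higher in WT tumours. All 13 measured genes were called, with a median difference of 3.46, 10 of them above background in every WT tumour. Ptprc, which encodes the pan-leukocyte phosphatase CD45, was at 3.77 and 3.47 in the line and at 8.47, 8.36, 8.21 and 8.64 in the WT tumours. The groups did not overlap, and Ptprc was at least 12.8-fold higher (adjusted p = 6.90e-06). The summed signal of the 13 genes was 163 and 160 in the line and 1906 to 3613 in the WT tumours. Lcp1, the leukocyte actin-bundling protein, and Itgb2, the shared beta chain of leukocyte integrins, were at least 28.4-fold and at least 10.9-fold higher. In such bulk samples, fewer cells of a type and less RNA per cell cannot be told apart. Under all 5 scalings 6 of the 13 genes were higher, and under median scaling 3 had a difference below 0, with 1 called lower.

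Macrophage and monocyte genes rose in 26 of 27 cases, 25 of them above background in every WT tumour, with a median difference of 3.71. Lyz2, the lysozyme of macrophages and granulocytes, was at 1.84 and 2.06 in the line and at 13.01, 13.02, 13.08 and 12.69 in the WT tumours. The tumours lay close together, and Lyz2 was at least 296-fold higher (adjusted p = 1.78e-07). Csf1r, the receptor for the macrophage growth factor CSF1, was at 4.22 and 3.87 in the line and at 9.70, 9.09, 9.66 and 9.81 in the WT tumours. It was at least 28.3-fold higher (adjusted p = 8.11e-06). Apoe, a lipid carrier that macrophages make in quantity, was at 3.77 and 4.06 in the line and at 12.73, 12.84, 13.22 and 13.11 in the WT tumours. It lay at least 301-fold above the line. Arg1, an arginine-degrading enzyme of suppressive myeloid cells, ranged more widely, at 4.10 and 3.38 in the line and at 8.58, 9.47, 9.89 and 10.62 in the WT tumours. All 4 tumours were far above the line, and Arg1 was at least 29.8-fold higher. Cd68, a lysosomal glycoprotein of macrophages, was already measurable in the line, at 5.25 and 5.12 in the line and at 8.38, 7.83, 8.55 and 8.83 in the WT tumours, a difference of 3.22 (SE 0.30, adjusted p = 9.64e-05), not called under median scaling at 0.61 (adjusted p = 0.0756). The exception among the 27 was Cd14, the lipopolysaccharide co-receptor, which stood at 9.18 and 9.23 in the line and at 8.01, 9.32, 9.86 and 9.19 in the WT tumours. Its groups overlapped (adjusted p = 0.845), and under median scaling it was called lower, at -2.72 (adjusted p = 4.12e-04). Under all 5 scalings 15 of the 26 rises held, and under median scaling 4 had a difference below 0, with 1 called lower.

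Granulocyte, dendritic and mast cell genes called higher reached lower levels. Of 13 neutrophil genes 9 rose (69.2%, near the 65.1% of all genes), 5 of them above background in every WT tumour. S100a8, a calcium-binding protein of neutrophils, was at 4.16 and 3.998 in the line and at 7.19, 9.19, 9.53 and 8.77 in the WT tumours. Tumour 1 was the lowest, and S100a8 was at least 15.2-fold higher. Csf3r, the receptor for granulocyte growth factor, was at least 2.41-fold higher (adjusted p = 1.27e-04). Dendritic cell genes rose in 15 of 16 cases, 8 of them above background in every WT tumour; Itgax, the integrin CD11c, was at least 3.49-fold higher (adjusted p = 2.99e-05), while Flt3 and Xcr1 were at background in every sample. Of 5 mast cell genes 4 rose. Cma1, a mast cell protease, was at 3.69 and 3.06 in the line and at 5.79, 8.47, 6.76 and 6.91 in the WT tumours, highest in the mean of tumours 2 and 3. Under median scaling Csf3r 0.50 (adjusted p = 0.15) and Cma1 1.002 (adjusted p = 0.161) were not called, nor were they with values raised to the highest background, at 0.36 (adjusted p = 0.245) and 1.30 (adjusted p = 0.345). Of these 3 lists, 4, 3 and 0 genes were higher under all 5 scalings. Under median scaling 4, 7 and 3 of the rises had a difference below 0, and 3, 5 and 2 were called lower.

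**Figure D2:**
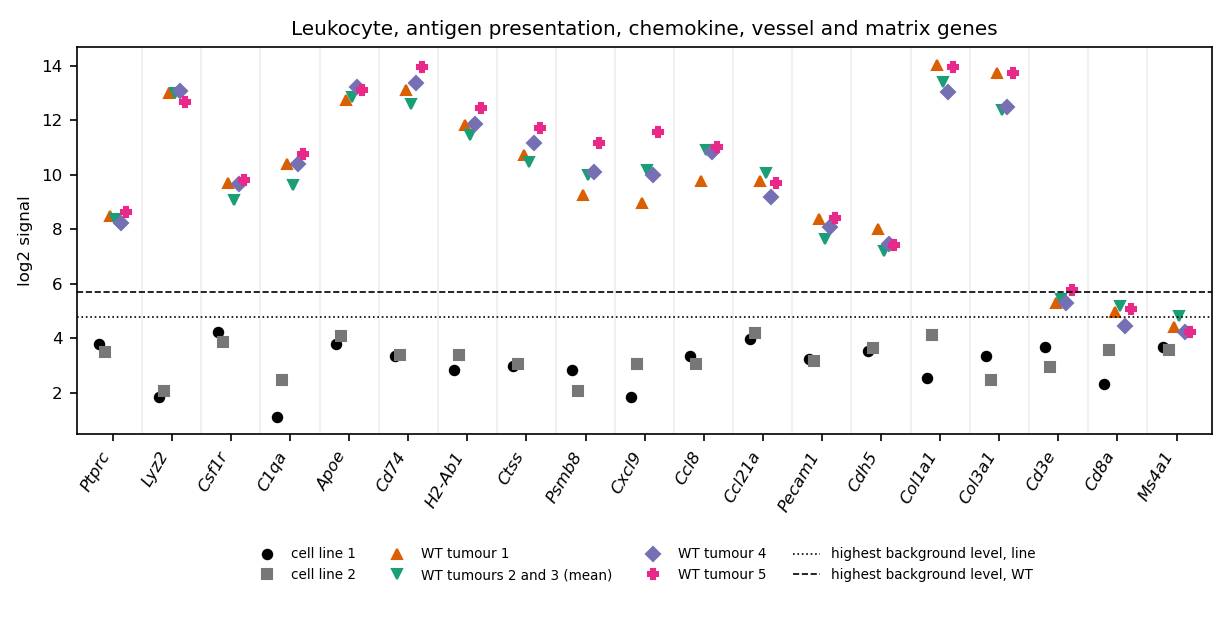
Log2 signal of 19 genes in each cell line sample (black circle, grey square) and each WT tumour (coloured symbols), with the highest background levels as dotted and dashed horizontal lines. Leukocyte, antigen presentation, chemokine, vessel and matrix genes lie below the dotted line in both line samples and far above the dashed line in every WT tumour; Cd3e, Cd8a and Ms4a1 lie near or below the dashed line.

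Of 28 complement genes 17 were higher, 2 lower and 9 not called, a share of 60.7% higher beside 65.1% of all genes. C1qa and C1qb, chains of the C1q recognition molecule, were at least 47.2-fold and at least 60.3-fold higher. C1qa was at 1.10 and 2.47 in the line and at 10.40, 9.64, 10.41 and 10.77 in the WT tumours. C3, the central component, was measurable on both sides, at 4.91 and 5.03 in the line and at 9.98, 10.04, 10.44 and 10.49 in the WT tumours. Its rise of 5.27 (SE 0.23, adjusted p = 6.90e-06) was the largest among genes above background in every sample. C4b, a C4 gene of the classical pathway, rose by 3.11, and was not called under median scaling, at 0.51 (adjusted p = 0.105). The inhibitor Serping1, which blocks C1 proteases, was at least 36.4-fold higher. Fcgr2b, the inhibitory IgG receptor, was at 4.16 and 4.06 in the line and at 10.17, 9.42, 10.19 and 10.99 in the WT tumours. The level was at least 43.7-fold higher (adjusted p = 2.59e-05), and 6 of 7 Fc receptor genes rose. Of the complement rises 7 of 17 held under all 5 scalings. Under median scaling 7 had a difference below 0, and 4 were called lower.

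MHC class II genes had the largest median difference of the 32 lists, 4.96. Of 11 measured genes 10 were higher, each of them above background in every WT tumour, and 1, the pseudogene H2-Ea-ps, was at background throughout. Classical class II promoters share a conserved arrangement of X and Y boxes read by the RFX and NF-Y factors together with the coactivator CIITA. The promoters of H2-Aa and H2-Eb1, which encode chains of the 2 classical class II molecules, and of H2-DMb1, a chain of the peptide-loading molecule H2-M, are shown because these genes moved together. The sequences run 5′ to 3′ on the gene's strand, from 250 bases before to 50 bases after the RefSeq start in build GRCm38.p6, with the Y box core TGATTGG in capitals.
H2-Aa, minus strand, chr17:34287774-34288073: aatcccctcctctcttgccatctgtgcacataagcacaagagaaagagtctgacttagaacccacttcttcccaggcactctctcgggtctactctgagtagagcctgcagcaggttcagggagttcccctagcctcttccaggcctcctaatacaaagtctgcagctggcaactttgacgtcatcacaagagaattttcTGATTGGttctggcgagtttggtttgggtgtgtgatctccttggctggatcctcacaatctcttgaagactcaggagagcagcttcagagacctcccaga
H2-Eb1, plus strand, chr17:34305617-34305916: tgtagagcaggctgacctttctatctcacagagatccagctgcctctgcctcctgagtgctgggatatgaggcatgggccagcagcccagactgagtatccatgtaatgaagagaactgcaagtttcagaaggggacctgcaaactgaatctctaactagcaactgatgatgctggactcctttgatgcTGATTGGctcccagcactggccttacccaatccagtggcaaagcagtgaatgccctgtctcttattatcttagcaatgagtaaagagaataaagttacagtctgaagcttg
H2-DMb1, plus strand, chr17:34152941-34153240: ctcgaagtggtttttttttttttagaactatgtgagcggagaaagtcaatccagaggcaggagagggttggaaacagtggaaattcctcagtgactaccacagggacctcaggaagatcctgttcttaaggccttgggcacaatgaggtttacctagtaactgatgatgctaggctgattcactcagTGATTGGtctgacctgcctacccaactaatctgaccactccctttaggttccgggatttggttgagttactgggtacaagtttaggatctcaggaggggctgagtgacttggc
The core began 50, 61 and 63 bases before the start. Of the 11 genes, 7 had a promoter in the RefSeq table, and 5 of these 7 carried TGATTGG on either strand (H2-Aa, H2-Eb1, H2-DMb1, H2-DMb2 and H2-Ob), against 7.82% of all 32851 promoters of this length. H2-DMa and Ctss did not. A match is a description of the letters, not of binding.

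Cd74, the invariant chain that escorts class II molecules, was at 3.33 and 3.38 in the line and at 13.13, 12.61, 13.39 and 13.98 in the WT tumours. WT tumours were at least 371-fold higher (adjusted p = 4.59e-06). H2-Ab1 was at 2.84 and 3.38 in the line and at 11.83, 11.45, 11.86 and 12.47 in the WT tumours. Its level was at least 143-fold higher (adjusted p = 4.59e-06). H2-Aa was at 4.80 and 4.56 in the line and at 12.58, 11.74, 12.61 and 13.41 in the WT tumours, a difference of 7.90 (SE 0.43, adjusted p = 1.17e-05), with 1 line sample just above background. In each of these genes tumour 5 was the highest and the mean of tumours 2 and 3 the lowest. H2-Eb1 and the invariant chain protease gene Ctss were at least 61.1-fold and at least 78-fold higher. Ciita, the class II transactivator itself, was at 2.84 and 2.64 in the line and at 6.58, 6.19, 6.45 and 7.31 in the WT tumours, low but above background in all 4 tumours, and at least 3.71-fold higher (adjusted p = 6.40e-05). With values raised to the highest background it was not called, at 0.95 (adjusted p = 0.12). H2-DMb1 was measurable in the line, at 5.35 and 5.45 in the line and at 7.93, 8.02, 8.42 and 8.95 in the WT tumours. It rose by 2.93 (SE 0.32, adjusted p = 2.09e-04) and was not called under median scaling, at 0.33 (adjusted p = 0.285). Of the 10 class II rises 7 held under all 5 scalings, and under median scaling 1 had a difference below 0 and was called lower. H2-Ob, of the modulator H2-O, rose by 0.65 and turned below 0 under median scaling and TMM factors, was not called under the other 2 scalings, and was not called without tumour 4, tumour 5, the averaged pair or either line sample (adjusted p = 0.0763 to 0.198). The summed signal of the class II list was 187 and 200 in the line and 23040, 15727, 25599 and 39969 in the WT tumours. That of the macrophage list was 907 and 937 in the line and 14000, 14366, 15678 and 14974 in the WT tumours. Both sums lay far above the line, but the class II sum was highest in tumour 5 and the macrophage sum in tumour 4. The part of macrophages or other cells in the class II rise was not tested.

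MHC class I and interferon genes included members carried by the line and members at background there. In the line 6 of 14 class I and 7 of 16 interferon-gamma response genes were above background in both samples. Of 14 class I presentation genes 11 were higher, 1 was lower and 2 were at background throughout and not called, with a median of 2.33. The heavy chain gene H2-K1 was at 8.22 and 8.07 in the line and at 9.64, 10.36, 10.61 and 11.49 in the WT tumours. H2-D1, the other classical heavy chain, was at 10.24 and 9.87 in the line and at 11.47, 12.26, 12.46 and 13.20 in the WT tumours. The groups did not overlap for either gene, and they rose by 2.38 (SE 0.47, adjusted p = 0.00358) and 2.29 (SE 0.45, adjusted p = 0.00337). Psmb8, an immunoproteasome subunit, was at background in the line, at 2.84 and 2.06 in the line and at 9.26, 9.996, 10.10 and 11.19 in the WT tumours. The gene was at least 42-fold higher (adjusted p = 2.67e-05). The peptide transporter genes Tap1 and Tap2 and the class I transactivator gene Nlrc5 were at least 16.4-fold, at least 4.43-fold and at least 7.71-fold higher. In 10 of the 11 class I genes above background in every WT tumour, tumour 5 was the highest, and in 9 of them tumour 1 was the lowest. Psmb8, Tap1, Tap2 and Nlrc5 were higher under all 5 scalings, while Tap2 was not called with values raised to the highest background, at 1.21 (adjusted p = 0.0684). H2-K1, H2-D1 and 3 other genes of the list turned below 0 under median scaling, and 2 of the others were called lower. The fall belonged to H2-Q10, a secreted class I molecule of liver, at 6.30 and 6.15 in the line and at 5.08, 5.29, 5.22 and 5.25 in the WT tumours. It was above background in the line, at background in every WT tumour and at least 1.79-fold lower (adjusted p = 0.0026).

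Of 16 interferon-gamma response genes 12 rose and 0 fell, 9 of the rises above background in every WT tumour. Cxcl9, a T cell chemokine induced by interferon-gamma, was at 1.84 and 3.06 in the line and at 8.98, 10.18, 10.001 and 11.58 in the WT tumours. It was at least 43.5-fold higher (adjusted p = 8.45e-05), with tumour 5 highest and tumour 1 lowest. Irf1, a transcription factor induced by interferon-gamma, rose by 2.04. Irf8, a transcription factor of myeloid cells, was at least 4.64-fold higher. The receptor chain gene Ifngr1 was abundant in the line, differed by -0.40 and was not called on the deposited scale, but was called lower under all 4 other scalings, at -3.01 to -0.73. Ifng, the cytokine gene itself, was at background in every sample. Type I interferon response genes rose in 18 of 26 cases (69.2%, near the 65.1% of all genes), 12 of them above background in every WT tumour. The median difference of this list was 1.30, close to the 1.21 of all genes. Zbp1, a nucleic acid sensor, was at least 11.5-fold higher, and Isg15, a ubiquitin-like modifier, at least 4.2-fold. With values raised to the highest background Irf8 1.27 (adjusted p = 0.0978) and Isg15 1.13 (adjusted p = 0.0766) were not called. Under all 5 scalings 5 of the 12 and 3 of the 18 rises held. Under median scaling 6 and 13 had a difference below 0, and 4 and 10 were called lower.

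Chemokine genes changed in both directions. Myeloid-attracting chemokines and growth factors rose in 15 of 19 cases, 9 of them above background in every WT tumour. Ccl8, a monocyte attractant, was at 3.33 and 3.06 in the line and at 9.78, 10.90, 10.82 and 11.03 in the WT tumours, with tumour 1 lowest. The level was at least 59.3-fold higher (adjusted p = 9.76e-06). Ccl9, another macrophage-derived chemokine, was measurable in both groups, at 5.07 and 4.97 in the line and at 9.41, 9.51, 9.88 and 10.45 in the WT tumours. It rose by 4.79 (SE 0.32, adjusted p = 2.59e-05). Ccl24 and Ccl11, which attract eosinophils, were at least 10.7-fold and at least 8.07-fold higher. Cxcl5, a neutrophil attractant made by epithelial cells, and Ccl2, the main monocyte attractant, were already abundant in the line. They differed by -0.38 and 0.57, neither called on the deposited scale. Under median scaling both were called lower, Cxcl5 at -2.98 (adjusted p = 0.00207) and Ccl2 at -2.03 (adjusted p = 0.002). Among 16 lymphocyte-attracting chemokines 10 rose (62.5%, near the 65.1% of all genes) and 1 fell. Ccl21a, a CCR7 ligand of lymphatic endothelium and stroma, was at 3.98 and 4.17 in the line and at 9.77, 10.07, 9.20 and 9.69 in the WT tumours. WT tumours were at least 30.7-fold higher (adjusted p = 8.11e-06). Ccl5, which attracts T cells, was at least 3.7-fold higher, and Ccl17, a CCR4 ligand, rose by 3.16 with tumour 5 highest. With values raised to the highest background Ccl5 0.95 (adjusted p = 0.419) and Ccl17 2.75 (adjusted p = 0.0569) were not called, and under median scaling Ccl17 was not, at 0.56 (adjusted p = 0.325). Ccl20, the CCR6 ligand, had the largest fall of all genes and is described with the other falls. Under all 5 scalings 6 of the myeloid and 3 of the lymphocyte chemokine rises held. Under median scaling 9 and 4 had a difference below 0, and 6 and 2 were called lower.

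Inflammatory cytokine genes rose in 12 of 17 cases (70.6%, near the 65.1% of all genes), 4 of them above background in every WT tumour. The median difference of this list was 1.18, beside 1.21 over all genes. Il1b, the interleukin 1 beta gene, was at 3.52 and 2.93 in the line and at 7.55, 8.14, 7.69 and 8.24 in the WT tumours. The gene was at least 8.95-fold higher (adjusted p = 2.13e-05), while its antagonist Il1rn fell. Tnf was at 3.10 and 2.47 in the line and at 5.08, 6.13, 6.32 and 6.28 in the WT tumours, at background in tumour 1 and above it in the other WT tumours (adjusted p = 4.37e-04). Its call was lost under median scaling, at 0.56 (adjusted p = 0.186), and with values raised to the highest background, at 0.42 (adjusted p = 0.246). Il6, Il12b and Il10 were at background in every sample. Only the rise of Il1b held under all 5 scalings. Under median scaling 10 of the 12 rises had a difference below 0, and 8 were called lower.

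Most T and B cell genes lay near background even in the immunocompetent host. Of 21 T cell genes 16 were higher, a share of 76.2% beside 65.1% of all genes. But 3 of these were above background in every WT tumour (Gata3, Cd3d and Tcf7), and 9 of the 21 were at background throughout. The background level was set on T and B cell genes of the line, so their low values in the line are no result. Cd3d, a CD3 chain of T cells, was at 4.43 and 4.76 in the line and at 5.97, 6.05, 6.04 and 6.74 in the WT tumours. The groups did not overlap, and the difference was 1.61 (SE 0.28, adjusted p = 0.00207). It was not called under TMM factors, at 0.45 (adjusted p = 0.174), or with values raised to the highest background, at 0.52 (adjusted p = 0.247), and was below 0 under median scaling. Cd3e, its partner, was at 3.69 and 2.93 in the line and at 5.29, 5.42, 5.30 and 5.76 in the WT tumours, at background in all tumours but 1 (adjusted p = 4.74e-04). No fold is given for it, and with values raised to the highest background the difference was 0.02 (adjusted p = 0.788). Cd4 and Cd8a, the co-receptors of helper and cytotoxic T cells, were at background in every sample, as was Foxp3, the regulatory T cell factor. Of 15 B cell genes 14 were at background throughout, Ms4a1 among them. All 7 genes called higher (46.7%, beside 65.1% of all genes) were among these 14, and the remaining gene, Blnk, was lower. No B cell gene and no T cell gene was higher under all 5 scalings. Under median scaling 15 of the 16 T cell rises and all 7 B cell rises had a difference below 0, and 11 and 5 were called lower.

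NK cell genes rose in 13 of 22 cases (59.1%, beside 65.1% of all genes), 6 of them above background in every WT tumour. Of the 22 genes 11 were at background throughout. Klrc1, the inhibitory receptor NKG2A of NK and some T cells, was at 3.84 and 4.56 in the line and at 8.52, 8.22, 8.43 and 8.04 in the WT tumours. It was at least 11.8-fold higher (adjusted p = 2.59e-05). Of the NK cell genes, Klrc1 alone was higher under all 5 scalings. Ncr1, the NK receptor NKp46, was above background in 2 of the 4 tumours. Klrb1c was at background in every sample. Cytotoxic genes rose in 5 of 10 cases, below the share of all genes. Gzmb, granzyme B, was at 2.98 and 3.64 in the line and at 4.17, 5.19, 4.59 and 6.23 in the WT tumours, above background in tumour 5 alone (adjusted p = 0.0285), and its call was lost without either line sample or the averaged pair (adjusted p = 0.0558 to 0.158), under each other scaling and with a pseudocount of 20 (adjusted p = 0.0659 to 0.353 for those with a difference above 0). Of 12 checkpoint genes 11 rose and 1, Tigit, fell. Cd274, which encodes the ligand PD-L1, was at 6.40 and 6.26 in the line and at 7.03, 7.58, 7.04 and 8.46 in the WT tumours. It rose by 1.20 (SE 0.42, adjusted p = 0.0393), but not without either line sample or the averaged pair (adjusted p = 0.08 to 0.15), and turned below 0 under median scaling. Its call was lost under the other 3 scalings too (adjusted p = 0.125 to 0.91). Cd276, the B7-H3 ligand, was at 7.30 and 7.02 in the line and at 8.64, 8.80, 9.06 and 9.21 in the WT tumours and rose by 1.77 (SE 0.24, adjusted p = 5.40e-04), with a difference below 0 under median scaling and no call under TMM factors, at 0.62 (adjusted p = 0.0636). Under median scaling 9 of the 13 NK cell, 3 of the 5 cytotoxic and 8 of the 11 checkpoint rises had a difference below 0. In these lists 4, 1 and 6 of the rises were called lower there.

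Vessel and matrix genes formed the other large addition. Col1a1 and Col3a1, the main fibrillar collagens of fibroblasts, were at background in the line. Col1a1 was at 2.52 and 4.12 in the line and at 14.05, 13.43, 13.03 and 13.97 in the WT tumours, and its 471-fold lower bound was the largest of all genes (adjusted p = 8.11e-06). Col3a1 was at 3.33 and 2.47 in the line and at 13.72, 12.39, 12.51 and 13.73 in the WT tumours, at least 325-fold higher. Tumours 1 and 5 were the highest for both. Of 11 fibroblast and matrix genes 10 were higher, each of them above background in every WT tumour, with a median of 3.51. Thbs1, the matrix protein thrombospondin 1, was at 6.78 and 6.68 in the line and at 11.11, 10.59, 10.82 and 10.86 in the WT tumours. It rose by 4.12 (SE 0.21, adjusted p = 1.02e-05). Fn1, fibronectin, was abundant in the line already, at 11.87 and 11.86 in the line and at 14.70, 14.10, 14.20 and 14.21 in the WT tumours. It rose by 2.43 (SE 0.23, adjusted p = 1.11e-04). The other member, Pdgfc, was not called. Of 16 endothelial genes 15 rose, 12 of them above background in every WT tumour. Pecam1, the junction protein CD31, was at 3.22 and 3.17 in the line and at 8.37, 7.62, 8.10 and 8.42 in the WT tumours. The level was at least 10.4-fold higher (adjusted p = 1.17e-05). Cdh5, the cadherin of endothelial junctions, was at least 6.84-fold higher, and Mcam, an adhesion molecule of vessels and pericytes, rose by 3.66 from a level measurable in the line. Tgfb1, the cytokine that drives matrix deposition, was at 8.42 and 8.42 in the line and at 11.59, 10.97, 10.75 and 11.01 in the WT tumours and rose by 2.66 (SE 0.27, adjusted p = 1.42e-04), but not under median scaling, at 0.05 (adjusted p = 0.882). Under all 5 scalings 5 of the matrix and 9 of the endothelial rises held. Under median scaling 3 and 2 had a difference below 0, and 2 and 1 were called lower.

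**Figure D3:**
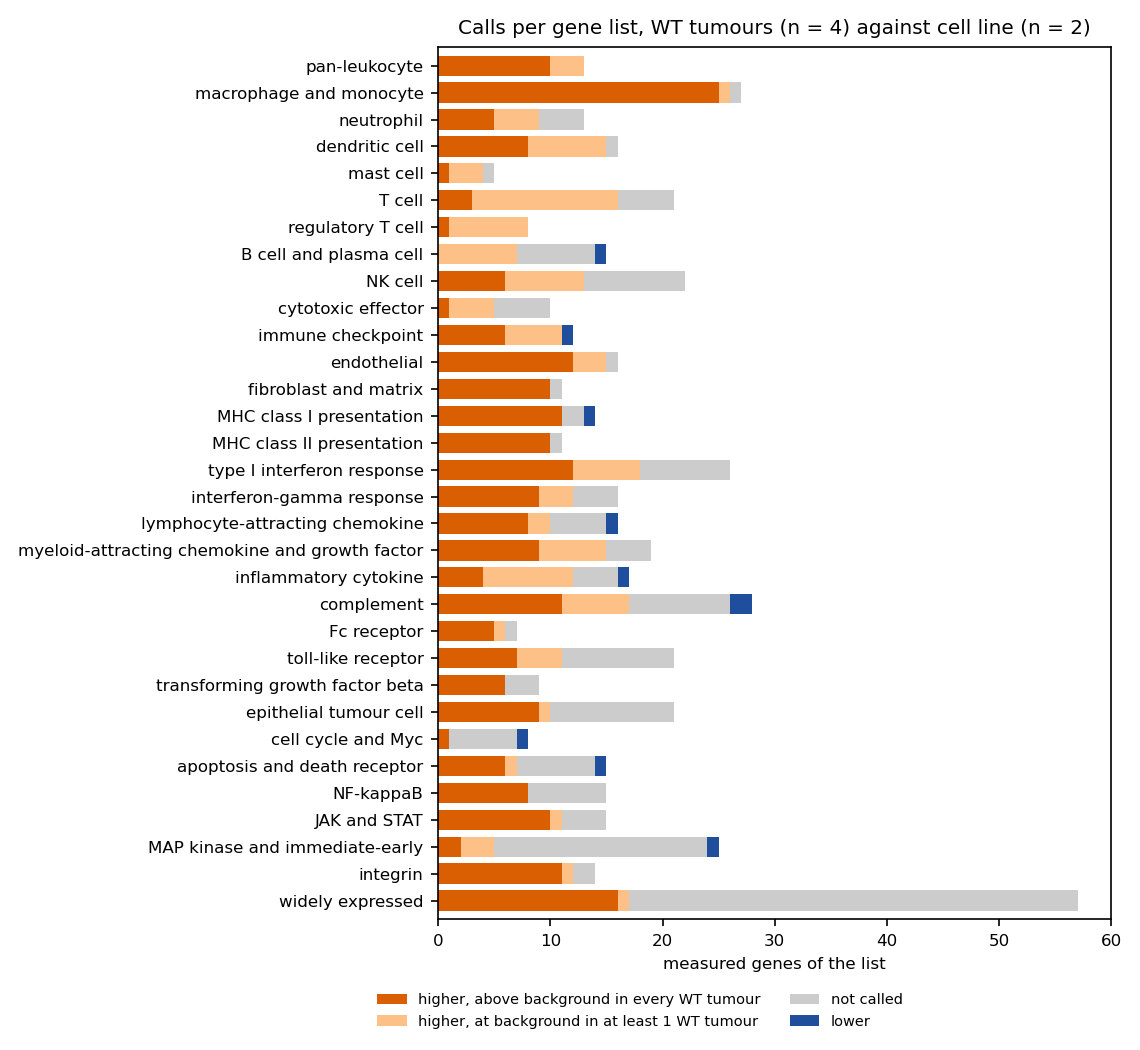
Number of measured genes of each of 32 lists that were higher in WT tumours and above background in every one (dark orange), higher but at background in at least 1 (light orange), not called (grey) or lower (blue). Macrophage, MHC class II, matrix and endothelial lists are almost wholly dark orange, T, B and NK cell lists are mostly light orange and grey, and the cell cycle, MAP kinase and widely expressed lists are mostly grey.

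Genes of epithelial tumour cells were in part higher and in part not called. Of 21 epithelial tumour cell genes 20 were above background in both line samples. Of the 21, 10 were higher (47.6%, beside 65.1% of all genes), 0 lower and 11 not called. Their median difference of 0.65 lay below the 1.21 of all genes, and near the 0.53 of all genes above background in the line. Clu, clusterin, the most abundant transcript, was at 16.63 and 16.60 in the line and at 16.69, 16.85, 17.15 and 16.75 in the WT tumours. Spp1, osteopontin, was at 14.54 and 14.40 in the line and at 13.92, 14.93, 14.83 and 14.64 in the WT tumours. Neither was called on the deposited scale (adjusted p = 0.331 and adjusted p = 0.781), the groups overlapped for Spp1, and every WT tumour was slightly above the line for Clu. Clu was called lower under median scaling, at -2.36 (adjusted p = 5.86e-05), and under TMM factors, at -0.90 (adjusted p = 0.0164). Spp1 was too, at -2.4998 (adjusted p = 9.72e-05) and -1.04 (adjusted p = 0.022). Clu took 30.6% and 30.5% of all counts in the line and 19.3% to 26.3% in the WT tumours, with no overlap between the groups. Cdh1, E-cadherin, and Muc1, a membrane mucin, differed by -0.19 and -0.17 and were not called, and without tumour 1 the differences were 0.23 and 0.32. Under median scaling both were called lower, at -2.79 (adjusted p = 4.11e-04) and -2.77 (adjusted p = 0.00106). Epcam, an epithelial adhesion molecule, was the largest rise of the list, at 8.78 and 8.80 in the line and at 9.80, 11.92, 12.78 and 12.13 in the WT tumours. Its difference was 2.87 (SE 0.75, adjusted p = 0.0127), and it was not called without either line sample (adjusted p = 0.0558 to 0.0584) or after scaling to the median, where it stood at 0.26 (adjusted p = 0.715). It was also not called under TMM factors or with values raised to the highest background (adjusted p = 0.0774 to 0.0911). Plau, the urokinase gene, was at 7.17 and 6.98 in the line and at 9.35, 9.001, 9.10 and 9.58 in the WT tumours and rose by 2.18 (SE 0.23, adjusted p = 1.95e-04). None of the 10 rises held under all 5 scalings. Under median scaling 9 of the 10 had a difference below 0, and 8 were called lower.

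Cell cycle, MAP kinase and widely expressed genes were mostly not called. Of 8 cell cycle and Myc genes 1 rose, 1 fell and 6 were not called. The rise was Cdkn1a, which encodes the cell cycle inhibitor p21, at 5.89 and 5.98 in the line and at 8.57, 8.89, 8.73 and 8.64 in the WT tumours. The groups did not overlap, and the difference was 2.77 (SE 0.19, adjusted p = 2.99e-05). Under median scaling it was 0.16 (adjusted p = 0.556), and no rise of this list held under all 5 scalings. Myc, the growth factor-responsive transcription factor, was at 11.18 and 11.20 in the line and at 10.99, 10.82, 10.73 and 10.60 in the WT tumours. Every tumour was below the line, and the difference of -0.41 was not called on the deposited scale (adjusted p = 0.107). Myc was called lower under all 4 other scalings, at -3.01 to -0.74, and with values raised to the background level. Of 25 MAP kinase and immediate-early genes 5 rose, 1 fell and 19 were not called, with a median of 0.30. All 5 rises turned below 0 under median scaling, and 3 were called lower. Of 15 NF-kappaB genes 8 rose (53.3%, beside 65.1% of all genes), 0 fell and 7 were not called. All 8 rises turned below 0 and were called lower under median scaling. Fos was at 10.27 and 10.26 in the line and at 7.15, 9.61, 9.04 and 9.38 in the WT tumours, below the line in every tumour and lowest in tumour 1. Its difference of -1.47 was not called (adjusted p = 0.0838), and without tumour 1 it was -0.92 (adjusted p = 0.0139). Fos was called lower under 3 of the 4 other scalings, at -4.07 to -2.07. Of 57 widely expressed genes 17 rose (29.8%, beside 65.1% of all genes), 0 fell and 40 were not called, with a median of 0.31. All 17 rises turned below 0 and were called lower under median scaling. Scaling on widely expressed genes left 4 of the 17 called higher, and scaling on line genes and TMM factors left 0.

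The 17 genes lower in WT tumours were genes the cultured cells carried above background in both samples. Each stayed lower under all 5 scalings, but the other scalings all moved the WT tumours down against the line and could hardly remove a fall. In each of the 17 genes every WT tumour was below both line samples, which held for 37 genes in all (4.93%). Ccl20, the chemokine that attracts CCR6-bearing cells, was at 8.19 and 8.24 in the line and at 4.48, 5.25, 5.96 and 5.39 in the WT tumours. It fell by 2.94 (log2; SE 0.39, adjusted p = 5.17e-04) and was above background in 2 of the 4 tumours. Il1rn, the natural antagonist of interleukin 1, was at 11.55 and 11.56 in the line and at 9.45, 10.12, 10.27 and 10.17 in the WT tumours and fell by 1.55 (log2; SE 0.28, adjusted p = 0.00222). Tfrc, the transferrin receptor that imports iron, was at 11.11 and 11.01 in the line and at 9.22, 9.56, 9.004 and 9.45 in the WT tumours and fell by 1.75 (log2; SE 0.23, adjusted p = 4.51e-04). Slc7a11, the cystine importer of glutathione synthesis, was at 7.45 and 7.26 in the line and at 5.73, 5.17, 5.13 and 6.21 in the WT tumours. It was at background in the averaged pair and in tumour 4. It fell by 1.80 (log2; SE 0.34, adjusted p = 0.00299). These 4 genes kept their calls without any 1 WT tumour or line sample.

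Several receptors with other cell types as their best known site were among the falls. Il5ra, the interleukin 5 receptor chain of eosinophils, was at 9.63 and 9.61 in the line and at 8.07, 8.34, 7.11 and 8.17 in the WT tumours. It was measured well above background in the line and fell by 1.69 (log2; SE 0.36, adjusted p = 0.00503). Tigit, a checkpoint receptor of T and NK cells, was at 7.54 and 7.55 in the line and at 5.73, 6.20, 6.15 and 6.54 in the WT tumours. It fell by 1.38 (log2; SE 0.26, adjusted p = 0.00273), so this checkpoint gene was higher in cultured tumour cells than in the tumours. Blnk, an adaptor of B cell receptor signalling, was at 6.95 and 6.97 in the line and at 5.41, 5.92, 6.36 and 5.97 in the WT tumours and fell by 1.05 (log2; SE 0.28, adjusted p = 0.0143), though its call was lost without either line sample (adjusted p = 0.0725 to 0.0736). Il22ra1, the interleukin 22 receptor chain of epithelia, and Pparg, a lipid-sensing nuclear receptor, fell by 1.26 and fell by 1.28. Masp1, a protease of the lectin pathway of complement, fell by 1.25 and was above background in 2 of the 4 tumours. C1qbp, a mitochondrial C1q-binding protein, fell by 0.59. Calls were lost without either line sample for Il22ra1 (adjusted p = 0.0894 to 0.116), without either line sample or the averaged pair for C1qbp (adjusted p = 0.051 to 0.139), and without tumour 1, 4 or 5 or either line sample for Masp1 (adjusted p = 0.0598 to 0.183).

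Abcb1a, a multidrug efflux pump, was at 10.64 and 10.62 in the line and at 10.26, 8.95, 8.54 and 8.70 in the WT tumours. Tumour 1 lay near the line and the other tumours well below it. The gene fell by 1.52 (log2; SE 0.48, adjusted p = 0.0266), and its call was lost without tumour 4, tumour 5, the averaged pair or either line sample (adjusted p = 0.0558 to 0.102). Smaller falls included those of a death receptor for TRAIL, an ERK phosphatase and a calcium-independent phospholipase: Tnfrsf10b fell by 0.82, Dusp6 fell by 0.79 and Pla2g6 fell by 0.59. Of these, Dusp6 was at 12.48 and 12.49 in the line and at 11.87, 11.68, 11.58 and 11.66 in the WT tumours. Their values were tight on both sides, and none of these 3 was called without either line sample, where the fit rests on 1 sample of the line (adjusted p = 0.0623 to 0.13). Over all genes 8 falls were called without line sample 1 and 8 without line sample 2.

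**Figure D4:**
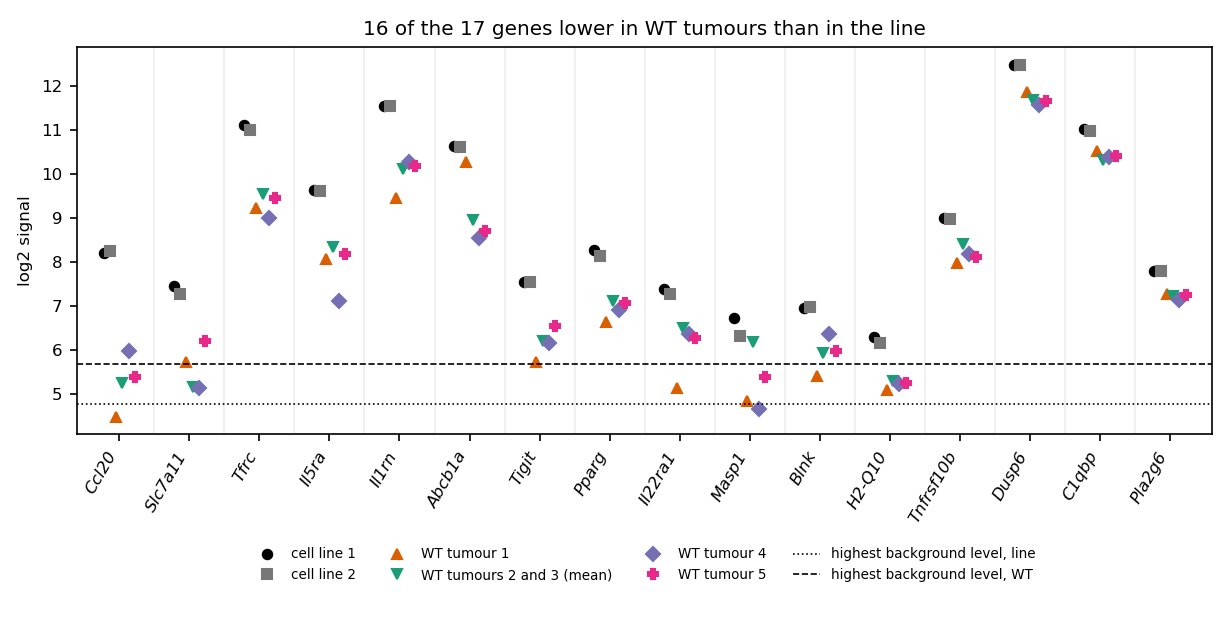
Log2 signal of 16 of the 17 genes lower in WT tumours, in order of the size of the fall, in each cell line sample and each WT tumour, with the highest background levels as dotted and dashed lines. Both line samples lie above every WT tumour for each gene; tumour 1 is close to the line for Abcb1a, and H2-Q10 lies below the dashed line in every tumour.

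The WT tumours differed among themselves more than the line samples did. Over the 455 genes above background in every WT tumour the median SD was 0.32, and the line samples' median absolute difference, over the 294 genes above background in both, was 0.088. Tumour 1 was the farthest from the mean for 40.4% of the 455 genes, against 21.3% for the averaged pair, 15.2% for tumour 4 and 23.1% for tumour 5. Its title number is shared by no other WT tumour, so that number and this tumour cannot be told apart. In 14 of 20 epithelial genes tumour 1 was the lowest, and in 7 of 11 matrix and 7 of 12 endothelial genes it was the highest; over all 455 genes it was lowest in 41.5% and highest in 22.6%.

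The most variable gene above background was Chil3, a chitinase-like protein of macrophages and neutrophils, at 3.84 and 3.47 in the line and at 5.54, 10.24, 8.77 and 9.45 in the WT tumours. It was called higher (adjusted p = 0.00945), though not without line sample 2 (adjusted p = 0.0505), under median scaling or with values raised to the highest background (adjusted p = 0.0714 to 0.247). Dmbt1, a secreted mucosal glycoprotein, was at 9.19 and 9.05 in the line and at 9.02, 13.28, 13.14 and 12.81 in the WT tumours, with tumour 1 just below the line and the others far above it. The difference was 2.94 (SE 1.17, adjusted p = 0.0573), and without tumour 1 it was 3.96 (adjusted p = 8.71e-05). Lcn2, the siderophore-binding lipocalin, was at 6.46 and 5.85 in the line and at 6.76, 7.66, 10.34 and 8.21 in the WT tumours, highest in tumour 4. It was not called (adjusted p = 0.0725), but was called without tumour 1 or without tumour 4 (adjusted p = 0.0316 to 0.0425). Ambp and Cfi, a plasma protease inhibitor precursor and complement factor I, had SDs of 1.38 among the WT tumours each, and tumour 1 was the lowest of both. Ambp was at 9.25 and 9.17 in the line and at 5.48, 8.65, 7.69 and 7.99 in the WT tumours, below the line in every tumour without being called (adjusted p = 0.0874), and it was called without tumour 1, at -1.10 (adjusted p = 0.0235), and lower under 3 of the 4 other scalings, at -4.36 to -2.36. Cfi was called higher without tumour 1, at 1.89 (adjusted p = 0.00153). Dll4, a Notch ligand of vessel tips, and Fap, a protease of activated fibroblasts, ran the other way, with tumour 1 at 8.48 and 7.90 and the other tumours at 6.24 to 6.86 and 6.37 to 6.77. Neither was called higher than the line under median scaling or with values raised to the highest background (adjusted p = 0.255 to 0.324 for Dll4 and adjusted p = 0.106 to 0.153 for Fap). Tumour 5 was the highest in 9 of 10 class II, 11 of 12 interferon-gamma and 10 of 10 leukocyte genes, against 41.5% of all 455.

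**Figure D5:**
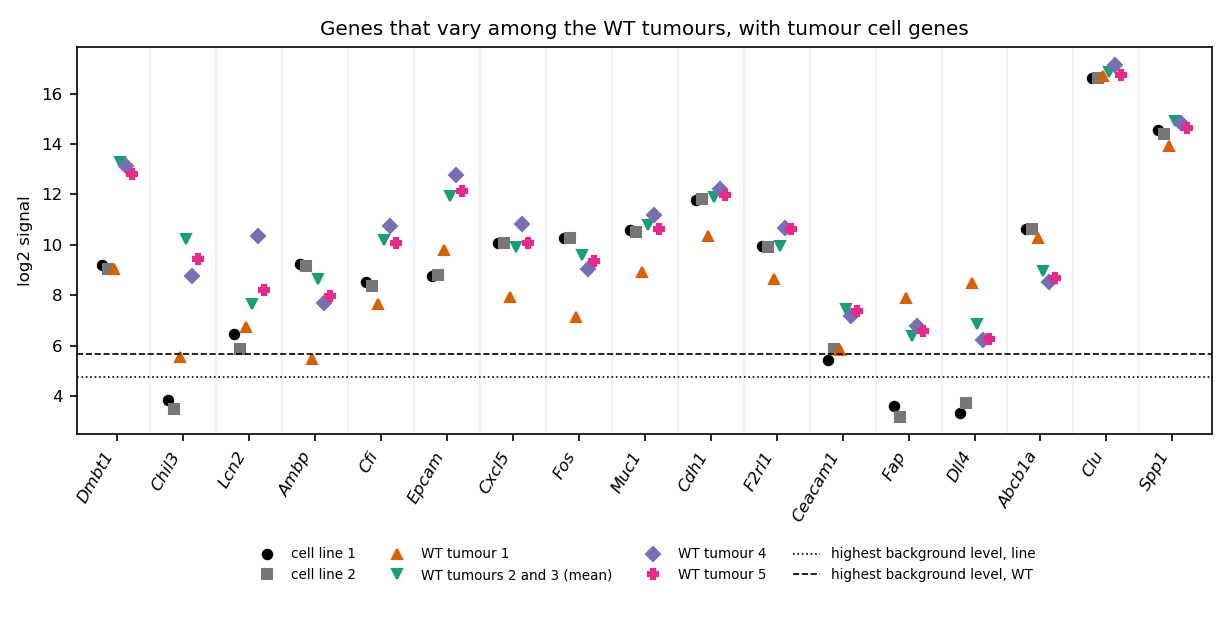
Log2 signal of the most variable genes among the WT tumours and of tumour cell genes, in each cell line sample and each WT tumour, with the highest background levels as dotted and dashed lines. Tumour 1 (orange triangles) is the lowest WT tumour for Dmbt1, Chil3, Epcam, Muc1 and Cdh1 and the highest for Fap, Dll4 and Abcb1a. On the deposited scale shown, Clu and Spp1 stay near the line in every tumour.

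Values of the SCID tumours are given beside a few of these genes. In a separate limma fit of the 4 WT values against 5 SCID tumours, 118 of the 750 genes were higher in WT tumours (15.7%) and 1 lower (0.133%). Lyz2 had a lowest, median and highest value of 11.04, 11.96 and 12.37 in SCID tumours, and Col1a1 of 12.97, 13.44 and 13.97. Both lay far above the line in every SCID tumour. WT exceeded SCID tumours by 1.06 (SE 0.26, adjusted p = 0.02) for Lyz2 and by 0.18 (SE 0.29, adjusted p = 0.709) for Col1a1, the latter not called. The call of Lyz2 was lost under median scaling or without the averaged pair (adjusted p = 0.0511 to 0.221). For Apoe and C1qa the excess was 0.47 (SE 0.26, adjusted p = 0.238) and 0.65 (SE 0.29, adjusted p = 0.16). Cd74 stood at 11.72, 11.99 and 13.00 in SCID tumours, 1.17 (SE 0.32, adjusted p = 0.0346) lower than in WT tumours. This call was lost under median scaling, without tumour 4 or 5, and without any of SCID tumours 1 to 4 (adjusted p = 0.0672 to 0.134). Cxcl9 stood apart, at 3.89, 4.63 and 5.09 in SCID tumours, all at background, and at least 29.97-fold below the WT tumours (adjusted p = 1.01e-04). Of the genes that fell from the line, Ccl20 was at 4.13, 4.86 and 5.43 and Tfrc at 8.68, 8.98 and 9.70 in SCID tumours, below both line samples, and their WT excess of 0.44 (SE 0.34, adjusted p = 0.422) and 0.25 (SE 0.23, adjusted p = 0.509) was not called.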

How the data were processed

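Total RNA, extracted with a column kit and checked on a BioAnalyzer per the labels' protocols, was measured on a NanoString nCounter mouse immune panel. The authors deposited log2 normalized values and the same values as linear signal, 1 factor per sample times whole probe counts. Software, normalization genes and genome build were not given in the sources used here. Of the deposited log2 table, 750 genes were used and 244 blank rows dropped. Counts were recovered by dividing each signal by its sample's step (tolerance 0.02 of a count) and served for depth, background and TMM factors. A gene was at background at or below 37.9 counts, the 95th percentile of 34 lymphocyte genes in the line. These were the measured genes of the T cell and B cell lists except Gata3 and Tcf7. They included Blnk, which the line carried above background. WT and line samples were compared with limma 3.58.1 in R 4.3.3 (lmFit and eBayes, two-sided, Benjamini-Hochberg over 750 genes, called at adjusted p under 0.05), and the fit was tested on simulated data. WT tumours 2 and 3 were averaged.

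Named genes are the 12 largest rises, falls and lower bounds, up to 4 per list, defining markers and the 8 most variable among WT tumours; any other gene named was chosen after its values were seen. Members and lists were chosen with earlier results of these data known. Symbols were matched to RefSeq GRCm38.p6 (736 current, 8 synonyms, 6 unmatched), which also gave promoters. Alternatives covered scaling, background, the averaged pair, the variance model, the replicate block and left-out samples. SCID tumours entered only their own comparison. Results of some measured genes are not reported here.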

Additional observations from a re-analysis of the deposited data

Results flagged for a closer look

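Of 105 genes named in the text and above background in at least 1 WT tumour, 8 had 1 WT tumour standing far from the other values of its group of 4. Chance flags about 1 in 20 independent groups, or about 5.2 of 105 genes. Some of these genes were named for their spread among the same tumours or after their values were seen. All of them share the same 4 WT values per gene, so the 8 flags cannot be judged against 5.2. In 7 of the 8 the tumour was WT tumour 1, and it was the lowest. It stood at 9.02 for Dmbt1, 9.78 for Ccl8, 10.35 for Cdh1, 10.63 for Ifngr1, 5.61 for H2-Ob, 5.13 for Il22ra1 and 5.08 for Tnf. The other was WT tumour 5, the highest for Cd3d at 6.74. For Il22ra1 and Tnf the value of WT tumour 1 was at background.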

How the results depend on the processing

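The scale between samples was the choice that moved most. Median scaling gave 101 genes higher and 480 lower, scaling on widely expressed genes 375 and 32, scaling on genes above background in the line 314 and 56, and TMM factors 231 and 154. Raising values to the highest background, chosen after seeing the data, gave 211 higher. Leaving out single samples gave 368 to 505 higher and 8 to 22 lower. Without either line sample 8 were lower, in a fit where the lone line sample is assumed to vary like the tumours. Other settings kept both counts within 1.5 times of 488 and 17, and doubling or halving the background level kept its counts within the same range. Replicate numbers did not pair line and WT samples (r of deviations -0.07 and -0.04), and the fit with the number as a block gave 456 higher and 16 lower. Averaging the 3 WT tumours that share a title number, with tumour 2 kept apart, gave 496 higher and 16 lower. There Abcb1a, Masp1 and H2-Ob lost their calls (limma adjusted p = 0.0535, 0.0688 and 0.0658). Masp1 also lost its call with WT tumours 2 and 3 kept apart (adjusted p = 0.0697). Count tests planned on recovered counts were not run. Of the named genes, 23 lost their call with values raised to the highest background, 16 under median scaling and 6 under TMM factors without turning sign. Also without turning sign, 8, 4, 4 and 2 not called became called under median scaling, TMM factors, line genes and widely expressed genes. Besides these, Ccl2, Clu and Spp1 turned sign and became called lower under median scaling, as did Clu and Spp1 under TMM factors. Cd274, Cd276, Cd3d, H2-Ob and Tcf7, called higher on the deposited scale, turned and were called lower under median scaling. Genes whose sign turned are given with their log2 difference, and the cause was not tested. Scaling to the median of all genes gave Ccl2 -2.03, Cd274 -1.41, Cd276 -0.84, Cd3d -0.999, Cd3e -0.47, Cfi -1.39, Clu -2.36, Fn1 -0.17, Gzmb -0.87, H2-D1 -0.31, H2-K1 -0.23, H2-Ob -1.95, Irf1 -0.56, Lcn2 -0.52, Plau -0.43, Spp1 -2.4998 and Tcf7 -1.33. Scaling on genes above background in the line gave Ccl2 -0.034, Clu -0.36 and Spp1 -0.50. TMM factors gave Ccl2 -0.57, Clu -0.90, H2-Ob -0.49 and Spp1 -1.04. The replicate block gave Ccl2 -0.11 and Spp1 -0.052. Scaling on widely expressed genes gave Clu -0.088 and Spp1 -0.23. Leaving out single samples took Cd14 from -0.37 to 0.25, Cdh1 from -0.39 to 0.23, Cxcl5 from -0.76 to 0.21, Muc1 from -0.43 to 0.32 and Spp1 from -0.012 to 0.33. Against SCID tumours, median scaling gave 37 genes higher and 49 lower and turned Apoe -0.13, Ccl20 -0.17, Col1a1 -0.43 and Tfrc -0.36. Keeping WT tumours 2 and 3 apart gave 2 lower, and leaving out single samples gave 67 to 156 higher, the fewest without WT tumour 5, and 0 to 3 lower. With 2 line samples and values near background in many genes, small differences and the order of low values are not resolved.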

Other observations

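Several of the larger additions belonged to none of the lists and were chosen after their values were seen. Cxcl14, a chemokine of stroma and epithelium, was at 2.98 and 3.998 in the line and at 10.31, 9.77, 9.40 and 9.76 in the WT tumours, at least 33.5-fold higher. Abca1, a cholesterol exporter that loads apolipoproteins, was at 3.91 and 4.43 in the line and at 8.22, 8.43, 8.79 and 9.21 in the WT tumours, at least 15.1-fold higher. Clec4n, the C-type lectin Dectin-2 of myeloid cells, Csf2rb, the shared beta chain of the GM-CSF receptor, and Cmklr1, a chemerin receptor, were at least 13.7-fold, at least 12.2-fold and at least 8.96-fold higher. In all 5 genes both line samples were at background and every WT tumour was above it.

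The remaining lists are given by their counts. All 8 regulatory T cell genes were called higher, but 4 of them were at background in every WT tumour and line sample. Only 1 was above background in every WT tumour. Integrin genes rose in 12 of 14 cases with a median of 1.69, JAK and STAT genes in 11 of 15 with a median of 1.02, and toll-like receptor genes in 11 of 21 with a median of 0.93. Genes of transforming growth factor beta signalling rose in 6 of 9 cases with a median of 0.67. Of 15 apoptosis and death receptor genes 7 rose and 1 fell, with a median of 0.47. Over all genes 65.1% were higher, with a median difference of 1.21. Under all 5 scalings 0, 4, 1, 2, 1 and 1 of the rises of these 6 lists held, in the order given. Under median scaling 7, 8, 9, 7, 4 and 4 had a difference below 0, and 6, 5, 8, 7, 4 and 4 were called lower.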
